A study of Mus musculus with 5 samples.

Results

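The lysyl oxidase family was represented on the arrays by 11 probes of 5 genes, out of 39429 probes and 31829 gene names in all, taken as every non-control probe that the array tables name Lox, Loxl1, Loxl2, Loxl3 or Loxl4. Lox, Loxl1 and Loxl4 had 2 probes each, Loxl2 had 4 and Loxl3 had 1, and each probe was a single spot on each array. The family was chosen by gene name after the difference of Lox between these same groups had been seen. Its differences between the groups are therefore given as a description, with no test.

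Lysyl oxidases are secreted, copper-dependent amine oxidases that convert lysine side chains of collagen and elastin into aldehydes, from which the covalent crosslinks of the extracellular matrix form. Lox and Loxl1 are made as proenzymes whose propeptide is removed outside the cell, and Loxl2, Loxl3 and Loxl4 carry scavenger receptor cysteine-rich domains ahead of the shared catalytic domain. Lox is a classical target of hypoxia-inducible factor, and collagen-rich tissue, not the beta cell, is where the family is best known.

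RNA of 5 samples of MIN6 cells, an insulin-secreting mouse insulinoma line used as a beta cell model, was hybridised to 1-colour Agilent arrays, 1 array per sample. Both groups were the same line incubated with exosomes, small vesicles that muscle kept ex vivo had released. In EXO-STD (2 arrays) the muscle came from mice on a standard diet, and in EXO-HP (3 arrays) from mice on a high fat diet. There was no group without vesicles, and the strain and age of the mice, the muscle, and the dose and time of treatment are not stated in the labels. The titles number biological replicates, and whether cultures or vesicle donors were separate is not said, so p-values cover only the spread between these samples.

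Levels are normalised log2 signals, on which 0 is the 75th percentile of an array. A probe is called well above background by the scanner software, separately on each array. Slide 1 held both EXO-STD arrays with EXO-HP replicate 1, and slide 2 held the remaining EXO-HP arrays. The lowest level called well above background lay between -6.47 and -6.14 on slide 1 and at -6.97 and -7.21 on slide 2, and the share of spots called so was 71.8% to 74.0% on slide 1 against 81.6% and 91.6% on slide 2. All 10 beta cell markers were well above background on all 5 arrays. Of 9 fibroblast markers, 4 were well above background on all 5 arrays, 1 (Pdgfra) was so on none, and the sum of the 6 tested ones on the linear scale (1 is the array's 75th percentile) was 0.22 and 0.23 in EXO-STD and 0.28 to 0.44 in EXO-HP. Of 12 skeletal muscle markers 7 were well above background on all 5 arrays, and the sum of the 10 tested ones was 0.94 and 0.82 in EXO-STD and 2.10, 1.21 and 1.02 in EXO-HP. Among the tested ones, 2 fibroblast and 3 muscle markers passed the filter on dim probes (below) only through EXO-HP. All of these were higher in EXO-HP, so the 2 sums support nothing. Of the markers of other cells, 4 of 6 endothelial, 5 of 6 macrophage and 2 of 5 adipocyte genes were well above background on all 5 arrays, and their part in the results was not tested.

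Of the 11 probes, 8 passed the filter on dim probes, which kept a probe if at least 2 arrays of either group called it well above background. The other 3, 1 each of Lox, Loxl1 and Loxl4, did not. Over the array, limma called 0 of 31943 tested probes between the groups at adjusted p 0.05 (0%), with the scanner signals and with the deposited table alike. Before adjustment, 1788 probes had p under 0.05 with the scanner signals and 632 with the deposited table.

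The probes differ in where they read their transcripts. From the known proteins, 2 probes each of Loxl1 and Loxl2 lie in the stretch coding for the shared catalytic domain. They are shown because the domain is the part in which family members are most alike. In the second pair, capitals mark the bases that are identical where the probes overlap best.
Loxl1 probe A_55_P2096226, minus strand: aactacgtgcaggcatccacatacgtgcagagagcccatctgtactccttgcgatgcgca
Loxl2 probe A_55_P2131348, plus strand: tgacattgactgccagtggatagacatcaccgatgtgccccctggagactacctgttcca
Loxl1 probe A_51_P304239, minus strand: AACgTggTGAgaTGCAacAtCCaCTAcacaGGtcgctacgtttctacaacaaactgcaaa
Loxl2 probe A_51_P275949, plus strand: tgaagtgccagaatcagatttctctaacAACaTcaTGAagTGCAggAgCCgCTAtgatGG
The second pair shared 19 of 32 overlapping bases (59.4%). The upstream probe of Lox, whose sequence is not printed, shared 31 of 51 bases (60.8%) with Loxl1 probe A_51_P304239 and 21 of 41 (51.2%) with Loxl2 probe A_51_P275949. These are the highest values among the 55 pairs of family probes, whose median was 41.9%, and no pair shared an identical run longer than 9 bases.

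On the mm9 build of the array design, the upstream Lox probe (A_55_P2032678) lay at chr18:52680465-52680524, and the downstream one (A_66_P138929) at chr18:52676912-52676971. The Loxl1 probes lay at chr9:58145451-58145510 (A_55_P2096226) and chr9:58138570-58138629 (A_51_P304239). The Loxl2 probes proper lay at chr14:70090017-70090076 (A_55_P2131348), chr14:70092141-70092200 (A_51_P275949) and chr14:70095254-70095313 (A_52_P480351). The fourth probe that the array names Loxl2 (A_55_P1987862) lay at chr2:71475085-71475144, and was designed on a predicted transcript described as similar to Loxl2 (LOC675778). The Loxl3 probe lay at chr6:83001888-83001947, and those of Loxl4 at chr19:42668733-42668792 (A_66_P107231) and chr19:42667320-42667379 (A_55_P2044143). The array design assigns each of the other 10 to the RefSeq transcript of its gene, and exon annotation was not used here.

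Lox, the founding member, was measurable in cells given EXO-STD vesicles and close to the detection limit in cells given EXO-HP vesicles. Its upstream probe had a level of -5.10 and -5.02 on the EXO-STD arrays, where it was well above background. It had -7.92, -7.34 and -6.95 on EXO-HP replicates 1, 2 and 3, where it was well above background on replicate 3 alone. All 3 EXO-HP arrays thus lay below both EXO-STD arrays. This held, as a background from which nothing is read here, for 881 of the 31943 tested probes (2.76%). The means were -5.06 ± 0.06 (SD, n = 2) and -7.40 ± 0.48 (SD, n = 3), a log2 difference of -2.35 ± 0.32 (SE). No fold is given, because the probe was not well above background on 2 of the 3 EXO-HP arrays. On slide 1 alone, EXO-HP replicate 1 stood -2.86 from the EXO-STD mean.

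The signals behind these levels were small. The processed signal of the upstream Lox probe, with the error that the scanner software assigns to the spot, was 56.1 ± 8.07 and 71.0 ± 12.4 intensity units in EXO-STD. For EXO-HP it was, in replicate order, 7.0 ± 5.54, 14.0 ± 4.10 and 16.8 ± 3.53. The software still called the probe positive and significantly different from background on all 5 arrays. Before detrending, the mean signal minus the local background was 69.9 and 88.5 in EXO-STD and 36.9, 39.3 and 34.6 in EXO-HP, a mean of 79.2 ± 13.1 (SD, n = 2) against 36.9 ± 2.32 (SD, n = 3). The ratio of these means was 2.14. It is not given as a fold of Lox, because these signals are not scaled between arrays and still hold the reading of a spot without target.

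**Figure D1:**
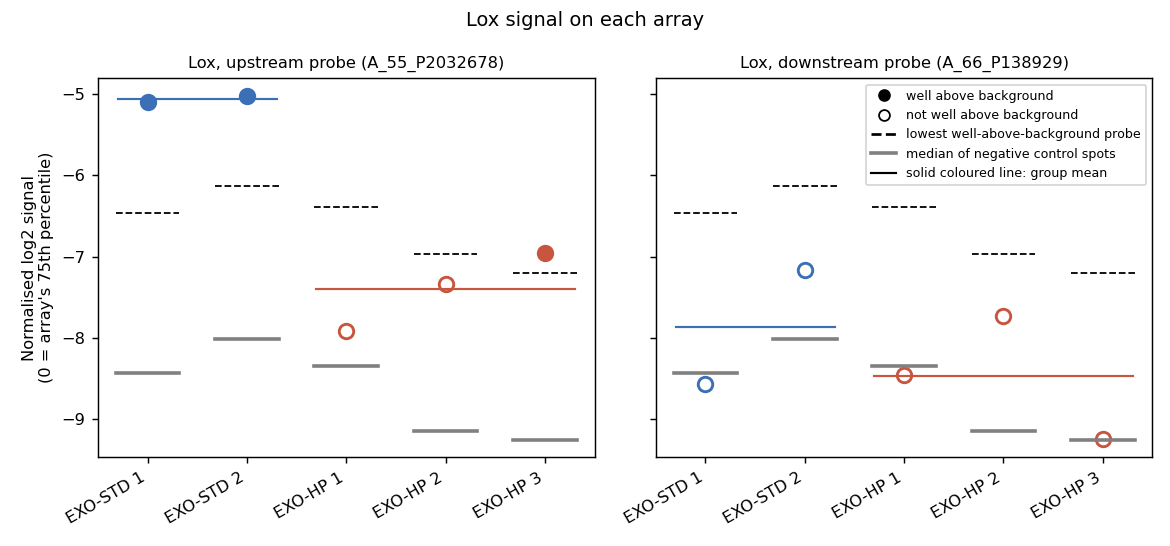
Normalised log2 signal of the upstream and downstream Lox probes (vertical axis, 0 is the 75th percentile of the array) on each array, with group means as coloured lines, the lowest level called well above background as dashed lines and the median of the negative control spots as grey lines. The upstream probe lies above the dashed line on both EXO-STD arrays and on EXO-HP replicate 3 alone, and the downstream probe lies below it on all 5 arrays.

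Each array carries 153 spots of 1 negative control probe, which give the reading of a spot without a target. Their median net signal, the mean signal minus local background, was 15.1 and 19.05 in EXO-STD and 20.2, 13.3 and 14.0 in EXO-HP. The upstream Lox spot exceeded 149 and 153 of the 153 control spots in EXO-STD and 145, 150 and 152 of them in EXO-HP. It therefore stood above most control spots on every array.

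The downstream probe of Lox was not well above background on any of the 5 arrays. Its level was -8.57 and -7.17 in EXO-STD and -8.46, -7.73 and -9.25 in EXO-HP, so the groups overlapped, and no fold is given. Its net signal was 21.0 and 54.9 in EXO-STD and 25.7, 34.4 and 20.5 in EXO-HP. The second probe thus neither repeated nor contradicted the difference of the first at this signal.

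**Figure D2:**
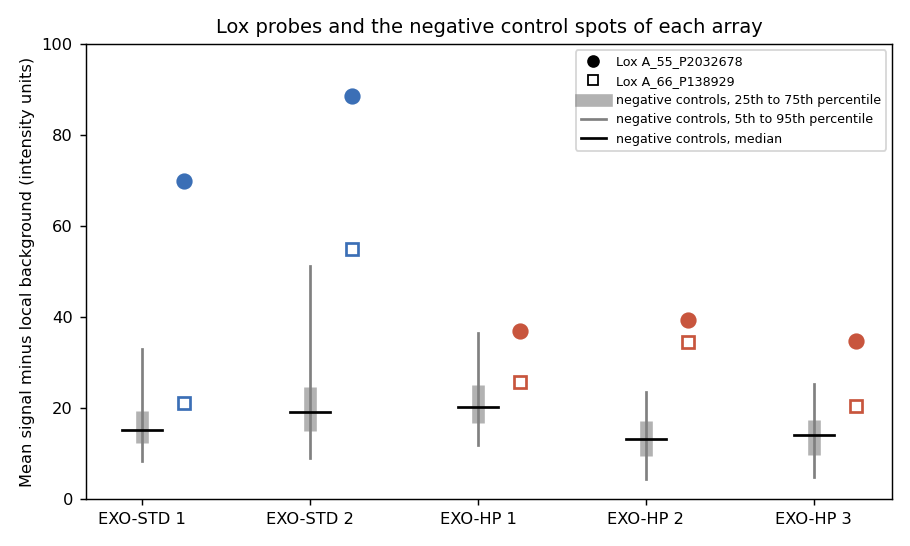
Net signal (mean signal minus local background, intensity units, linear axis) of both Lox probes on each array beside the 153 negative control spots, drawn as the median, the 25th to 75th percentile and the 5th to 95th percentile. The upstream probe lies at 69.9 and 88.5 units in EXO-STD and between 34.6 and 39.3 units in EXO-HP, where it is just above the 95th percentile of the controls on replicate 1.

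Loxl1, the paralogue needed for elastic fibre upkeep, was measured by a brighter and a dimmer probe. The brighter one (A_55_P2096226) was well above background on all 5 arrays, with levels of -4.09 and -4.14 in EXO-STD and -4.16, -4.28 and -4.44 in EXO-HP. The EXO-HP arrays lay below both EXO-STD arrays, the nearest by less than the gap between the EXO-STD arrays themselves, and the difference was -0.17 ± 0.20 (SE). On slide 1 alone it was -0.04. The dimmer probe (A_51_P304239), the one most like the Lox probe in sequence, had -7.98 and -7.89 in EXO-STD and -7.81, -5.89 and -7.04 in EXO-HP, and was well above background on EXO-HP replicate 2 alone. EXO-HP replicate 2 was its highest array. In the deposited table it read 5.18 and 5.36 in EXO-STD and 5.21, 5.34 and 5.28 in EXO-HP, where EXO-STD replicate 2 was the highest array and the groups overlapped.

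Loxl2, which crosslinks collagen IV of basement membranes, was well above background on all 5 arrays with each of its probes. The catalytic domain probe A_55_P2131348 had a level of 1.40 and 1.24 in EXO-STD and 1.51, 1.34 and 1.49 in EXO-HP. The neighbouring probe A_51_P275949 had 0.95 and 0.84 in EXO-STD and 1.12, 0.89 and 1.06 in EXO-HP. Both ordered the 5 arrays in the same way and overlapped between the groups, with differences of 0.13 ± 0.19 (SE) and 0.13 ± 0.20, which turned to -0.05 each with median scaling.

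The downstream Loxl2 probe A_52_P480351 differed from them. It had 3.14 and 3.47 in EXO-STD and 3.16, 2.67 and 2.94 in EXO-HP, a difference of -0.38 ± 0.24 (SE). EXO-STD replicate 2 was the highest array for this probe and the lowest for both catalytic domain probes, and its processed signal was 25379 units there against 14416 to 16886 on the other arrays. The groups overlapped, because EXO-HP replicate 1 lay above EXO-STD replicate 1. The probe on chromosome 2 had -3.31 and -3.57 in EXO-STD and -3.45, -3.18 and -4.45 in EXO-HP, so that its difference of -0.25 ± 0.41 (SE) came from EXO-HP replicate 3 and was 0.13 without that array.

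Loxl3, a member required for palate and spine development, had 1 probe, well above background on all 5 arrays. Its level was -4.58 and -4.76 in EXO-STD and -4.59, -4.20 and -4.52 in EXO-HP. The groups overlapped, with EXO-HP replicate 2 highest, and the difference was 0.23 ± 0.22 (SE).

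Loxl4 was at or below the detection limit. Its probe A_55_P2044143 was not well above background on the arrays of slide 1, at -8.41 and -8.08 in EXO-STD and -8.36 on EXO-HP replicate 1, and was so on the arrays of slide 2, at -6.70 on EXO-HP replicates 2 and 3. It passed the filter only through those 2 arrays. Probe A_66_P107231 had -8.22 and -7.80 in EXO-STD and -7.63, -6.00 and -7.11 in EXO-HP, well above background on EXO-HP replicate 2 alone. No fold is given for either, because their EXO-HP means of -7.25 and -6.91 did not exceed -6.30, the mean of the lowest detected levels of the EXO-STD arrays. The dim probes of Loxl1 and Loxl4 were high on the arrays of slide 2, where the level needed for detection was lower. On slide 1, EXO-HP replicate 1 lay between the EXO-STD arrays for Loxl4 probe A_55_P2044143. It lay above both EXO-STD arrays for Loxl4 probe A_66_P107231 and for the dimmer Loxl1 probe. No array of slide 1 called either of these well above background, and the part of the slide was not tested.

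**Figure D3:**
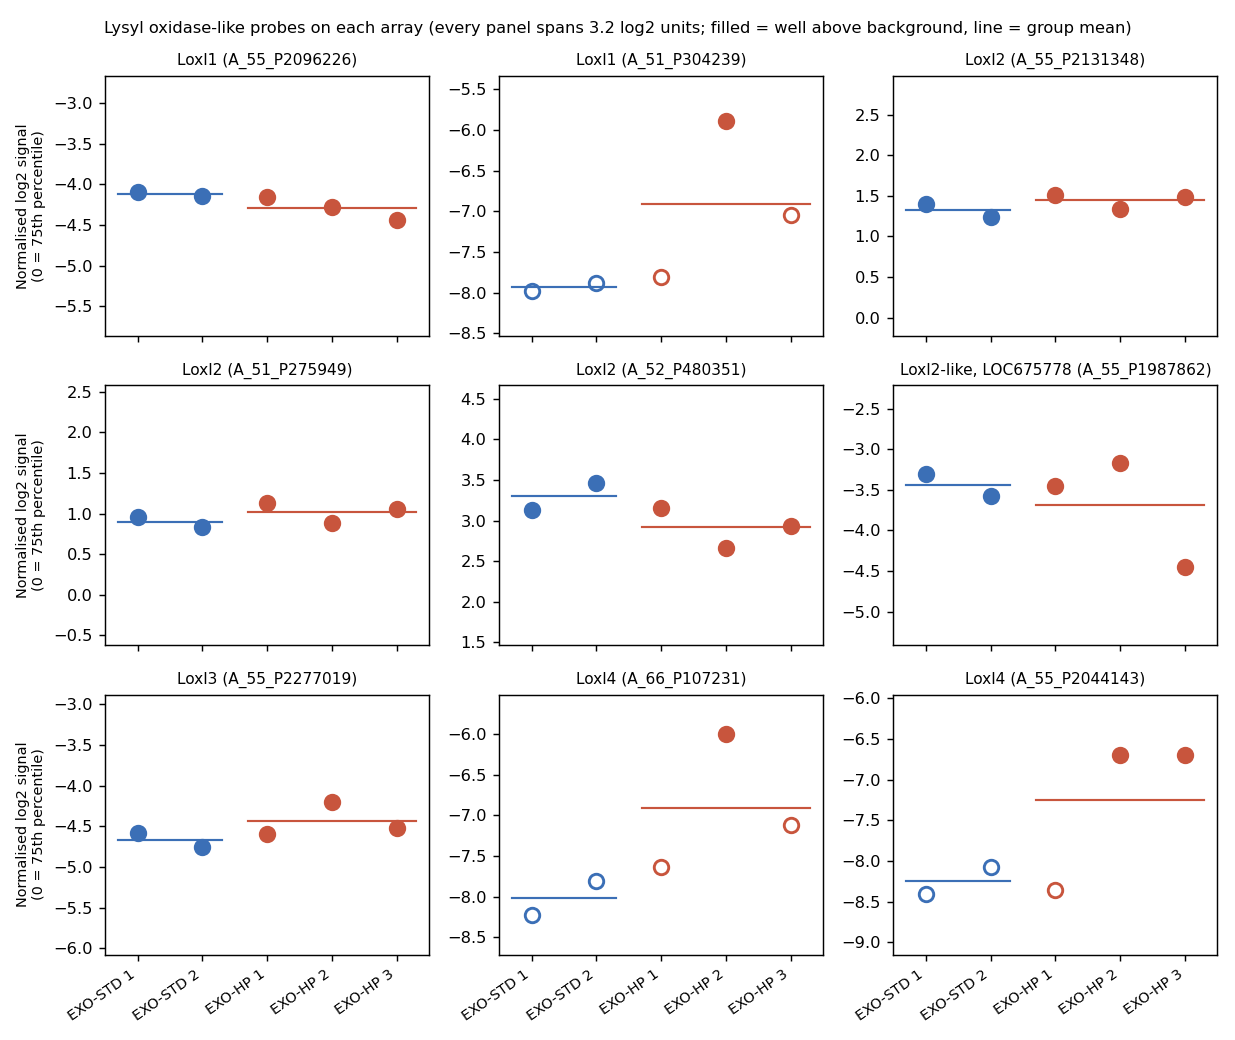
Normalised log2 signal of the 9 probes of Loxl1 to Loxl4 on each array (vertical axes of equal span, 0 is the 75th percentile of the array), filled where well above background and with group means as lines. The Loxl2 probes stay within 1 log2 unit except the one designed on LOC675778, and the dim probes of Loxl1 and Loxl4 are filled only on EXO-HP replicates 2 and 3.

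The table of log2 values deposited for the whole series gave Lox the same direction with a smaller size. There the upstream probe read 6.58 and 6.43 in EXO-STD and 5.59, 5.12 and 5.63 in EXO-HP, a difference of -1.06 ± 0.23 (SE), and the groups did not overlap. After normexp background correction of the raw signals, with an offset of 50 units added, the difference was -0.51 ± 0.21. Such an offset by itself shrinks the log2 differences of dim probes. With quantile normalisation of the processed signals the difference was -2.70 ± 0.43. Direction was thus shared by all 4 sets of values, and size was not.

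In the deposited table the downstream Lox probe read 5.05 and 5.78 in EXO-STD and 5.03, 4.99 and 5.03 in EXO-HP. The lone high reading was EXO-STD replicate 2.

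For the other members the deposited table gave -0.29 ± 0.20 (SE) for the brighter Loxl1 probe and 0.15 and 0.11 for the catalytic domain probes of Loxl2. The downstream Loxl2 probe had -0.39 ± 0.28, against -0.38 ± 0.24 with the main values. The probe on chromosome 2 had -0.40. Loxl4, not well above background in EXO-STD, had 0.20 with probe A_55_P2044143. Its probe A_66_P107231 read 4.56 and 4.89 in EXO-STD and 5.27, 5.15 and 5.42 in EXO-HP, a difference of 0.56. Loxl3 changed sign, to -0.19 with the deposited table, -0.07 with quantile normalisation and -0.01 after normexp.

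**Figure D4:**
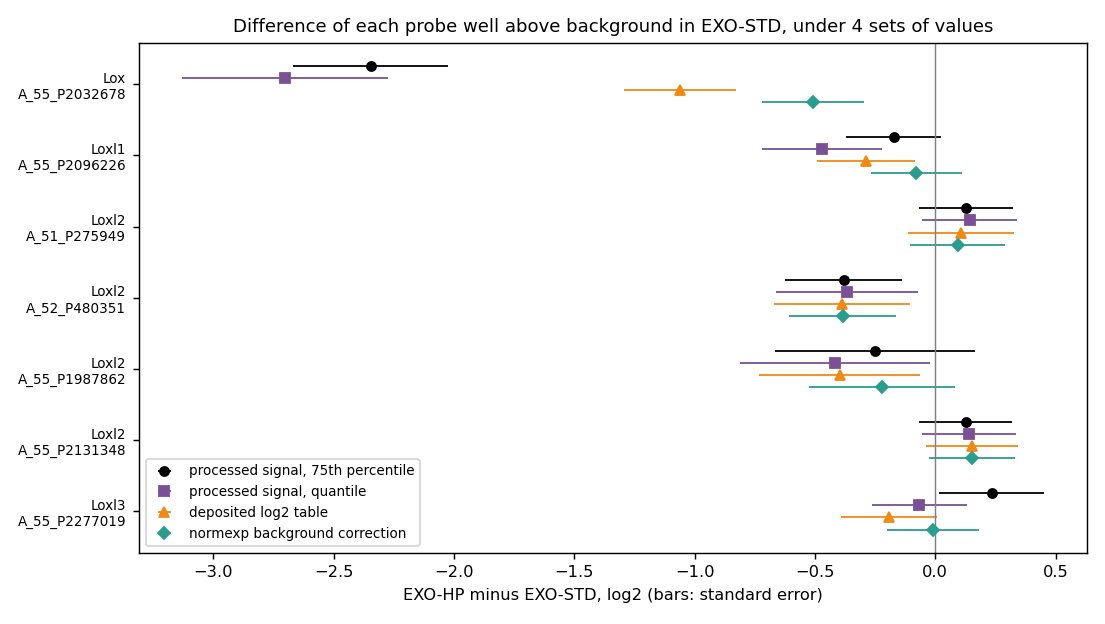
Log2 difference between EXO-HP and EXO-STD (horizontal axis, bars are standard errors of the fit over 5 arrays) for the 7 probes that both EXO-STD arrays detected, under 4 sets of values. Lox lies between -2.70 and -0.51, all below 0, whereas Loxl3 lies on both sides of 0 and the 4 probes named Loxl2 each keep their sign over these 4 sets.

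The genes whose profile over the 5 arrays was most like that of Lox were found by the root mean square distance between centred log2 levels. They were Ak4, a mitochondrial adenylate kinase, at a distance of 0.38, Slc26a5, the motor protein prestin, at 0.42, the odorant receptor gene Olfr960 at 0.47, Gm7742 at 0.53, Slamf8, a receptor of myeloid cells, at 0.58 and Gm5039 at 0.61, where the profile of Lox itself had a root mean square of 1.19. Ak4 had levels of -1.88 and -2.83 in EXO-STD and -4.66, -4.38 and -4.15 in EXO-HP. Its arrays took the same order as those of Lox within EXO-HP and the opposite order within EXO-STD. Ak4 was picked for its likeness over these same arrays, so the shared order supports nothing. In the deposited table Ak4 stood at -1.91 and Slc26a5 at -1.78, against -0.34 for Slamf8. Each of the other members had close neighbours at 0.02 to 0.06, among them Sh3yl1 for Loxl1, Sult2a8 for Loxl2, Ccdc71 for Loxl3 and Gm9271 for Loxl4, in profiles that vary little (Loxl1 0.12, Loxl2 0.26, Loxl3 0.18) or sit at the detection limit (Loxl4).

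The substrates of the family and the proteins that assemble fibres with them were measured by 19 of 23 genes listed. None was called in either direction. The median log2 difference was 0.30, with 14 higher and 5 lower, beside 0.07 over all 25899 tested genes, and 62.3% of all tested genes were higher. Above both EXO-STD arrays lay 6 (15.1% of all tested genes did), and 0 lay below both. Of the 19, 6 passed the filter only through EXO-HP and were all higher, 3 of them without overlap, so these counts support nothing. The median was 0.10 among genes well above background on all 5 arrays and 0.06 in the deposited table. Eln, the elastin precursor, had -2.24 and -2.51 in EXO-STD and -2.32, -2.48 and -2.51 in EXO-HP, which overlapped. Col1a1 and Col1a2, the chains of collagen I, had differences of -0.02 ± 0.28 (SE) and 0.75 ± 0.40.

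The smallest p among the substrates belonged to Col4a2, a basement membrane collagen chain, and to the small proteoglycans Bgn and Dcn. Col4a2 had -8.65 and -7.38 in EXO-STD and -6.27, -4.18 and -6.78 in EXO-HP, and Dcn had -6.28 and -6.74 against -6.13, -4.54 and -5.06. Neither was well above background in EXO-STD, and no fold is given. In the deposited table their differences were 2.47 and 0.30. Bgn had levels of -1.24 and -2.50 in EXO-STD and -1.21, 0.26 and -0.38 in EXO-HP, a difference of 1.43 ± 0.56 (SE). None of the 3 passed (limma, adjusted p = 0.890 for Col4a2 and 0.891 for Bgn and Dcn). Relative to EXO-STD, the median of the substrates was 0.17, 0.80 and 0.17 on the EXO-HP arrays in replicate order, and that of the fibroblast markers, of which Col1a1, Col1a2 and Dcn are also substrates, was -0.02, 0.97 and 0.64. Of the 6 tested fibroblast markers, 2 passed the filter only through EXO-HP and were higher. Fewer cells of a type and less RNA per cell cannot be told apart in such samples, and the part of other cells was not tested.

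Propeptide processing, a list of mostly proteases that also holds Pcolce and Pcolce2, was measured by 10 of 10 genes. Of these 0 were called, 9 were higher and 1 lower, with a median of 0.34. Over all tested genes, 62.3% were higher. Of the 10, 3 (Tll2, Adamts3 and Pcsk6) passed the filter only through EXO-HP and were higher. The median was 0.29 among genes well above background on all 5 arrays and 0.13 in the deposited table. Bmp1, the main protease for the Lox propeptide, had 3.41 and 3.29 in EXO-STD and 3.72, 3.81 and 3.82 in EXO-HP. All EXO-HP arrays were above both EXO-STD arrays, which held for 15.1% of all tested genes. The difference of 0.43 ± 0.19 (SE) did not pass (limma, adjusted p = 0.911). The other of the 2 tested Bmp1 probes gave 0.23. Pcsk6, a proprotein convertase, and Tll2, a relative of Bmp1, were not well above background in EXO-STD, and no fold is given. Their differences in the deposited table were 0.50 and 0.44 (limma with the main values, adjusted p = 0.894 and 0.956). On slide 1 alone the median of this list was 0.07.

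The enzymes that hydroxylate and fold collagen were split, with 8 of 15 tested genes higher, 7 lower and 0 called. Their median was 0.04, which turned to -0.13 with median scaling. Of the 15, 2 (P3h2 and Colgalt2) passed the filter only through EXO-HP and were higher, so these counts support nothing. Among genes well above background on all 5 arrays the median was 0.004. Plod3, a collagen lysyl hydroxylase, had 0.35 and 1.38 in EXO-STD and 1.91, 1.75 and 1.53 in EXO-HP, a difference of 0.87 ± 0.35 (SE; limma, adjusted p = 0.894). P3h2, a prolyl hydroxylase detected on 1 of the 2 EXO-STD arrays, stood at 1.15 ± 0.41 (adjusted p = 0.890) and P4ha1, the catalytic subunit of prolyl hydroxylase, at -0.38 ± 0.21 (adjusted p = 0.969). In the deposited table they read 0.78, 0.46 and -0.43.

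Copper handling, on which the enzymes depend, showed no common direction. Of 15 tested genes of 16, 7 were higher and 8 lower, 0 were called, and the median was -0.0008. Atp7a, the pump that loads copper into secreted enzymes, had 3.33 and 2.96 in EXO-STD and 3.76, 3.39 and 3.71 in EXO-HP. Every EXO-HP array was above both EXO-STD arrays, as for 15.1% of all tested genes. The Atp7a difference of 0.47 ± 0.23 (SE) did not pass (limma, adjusted p = 0.935). Cox17, the chaperone that takes copper to cytochrome oxidase, had -4.18 and -3.06 in EXO-STD and -4.68, -5.31 and -4.57 in EXO-HP, a difference of -1.23 ± 0.42 (adjusted p = 0.885). Steap3, a metalloreductase, stood at 0.40 ± 0.21. Of 8 tested genes of 11 for other copper enzymes, 5 were higher and 3 lower with 0 called (median 0.07, or -0.10 with median scaling). Of the 8, 1 (Cp) passed the filter only through EXO-HP and was higher. The smallest p belonged to Heph, a ferroxidase, at 0.36 ± 0.21, of whose 3 probes the 2 tested gave 0.36 and -0.41.

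Among transcription factors and signals that regulate family members, 14 of 19 tested genes were higher, 5 lower and 0 called, with a median of 0.12 (-0.06 with median scaling, 0.06 among genes well above background on all 5 arrays). The share of all tested genes that were higher was 62.3%. Of the 19, 3 passed the filter only through EXO-HP and were higher. Hif1a, which activates Lox in low oxygen, had -0.28 and -0.04 in EXO-STD and -0.28, -0.34 and -0.21 in EXO-HP, a difference of -0.12 ± 0.20 (SE). Epas1, the related HIF-2alpha gene, stood at 0.37 ± 0.20, with probes from -0.52 to 0.37. Snai1, a repressor that Loxl2 and Loxl3 proteins bind, and Twist1, another factor of epithelial to mesenchymal transition, were not well above background in EXO-STD, and no fold is given. Their differences in the deposited table were 0.10 and 0.00.

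Genes known to respond to low oxygen, of which Lox is one though the list does not hold it, were lower in 15 of 18 tested members. Of these 18, 0 were called, and their median was -0.40. Over all tested genes, 37.7% were lower and the median was 0.07. The EXO-HP arrays lay below both EXO-STD arrays for 8 of 18 members, against 2.81% of all tested genes. This list was drawn up with the low values of several members on these arrays known, so its count supports nothing. Its smallest p belonged to Ak4, at -2.04 ± 0.34 (SE, with limma adjusted p = 0.813), Ldha, which makes lactate, at -1.88 ± 0.61 (adjusted p = 0.884) and Bnip3, a mitophagy receptor, at -0.92 ± 0.27 (adjusted p = 0.884). The 3 tested probes of Ldha ran from -2.12 to -1.40, and the 3 of Bnip3 from -1.07 to -0.37. Relative to EXO-STD the list's median was -0.47, -0.32 and -0.44 on EXO-HP replicates 1, 2 and 3. The median and the upstream Lox probe were both lowest on replicate 1, but the median was highest on replicate 2 and Lox on replicate 3. This Lox probe was not well above background on replicates 1 and 2. Its deposited values there were 5.59, 5.12 and 5.63 in replicate order, lowest on replicate 2. Nothing is therefore read from the order of Lox within EXO-HP.

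**Figure D5:**
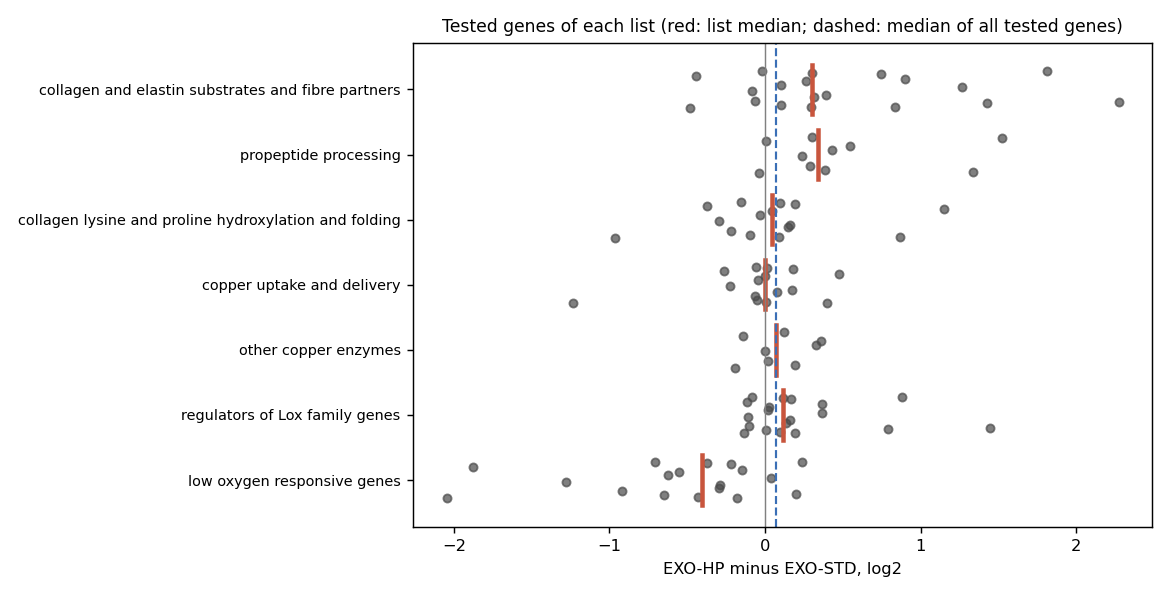
Log2 difference between EXO-HP and EXO-STD (horizontal axis) of each tested gene in 7 lists around the family, 1 point per gene, with list medians in red and the median of all tested genes dashed. The low oxygen list has a median of -0.40 and the lists of substrates and of propeptide processing have medians of 0.30 and 0.34, and no gene shown passed the test over all probes.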

How the data were processed

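Per the file headers, each deposited scanner table lists spot intensity values from version 10.7.3.1 of Agilent's Feature Extraction, background-subtracted and detrended, with a surrogate where a spot did not exceed background. Version 9.1 of that software and limma stand in the submitters' processing notes. The deposited series table holds log2 values whose columns share 1 distribution and follow the rank of mean signal minus local background on each array (Spearman rho = 1), and how it was made is not stated. All its columns were matched to samples.

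Log2 processed signals were averaged per probe without outlier spots (none of the family's), then scaled to 0 at the 75th percentile of the array. Of 39429 probes, 110 had no usable spot on some array and 7376 were too dim, leaving 31943. The comparison used limma (3.58.1, R 4.3.3; EXO-HP minus EXO-STD, no covariates, Benjamini-Hochberg adjustment), with 3 residual and 2.59 prior degrees of freedom, tested on simulated data. Genes of lists are represented by their brightest probe. Named were every family probe, the closest profiles (6 for Lox, 3 for each other member, of which 1 is printed) and, per list, the 3 smallest p values and genes fixed by name. Aoc2, Tyr and the remaining close profiles are not described. Members and lists were chosen with earlier results of these data known. Gene symbols were updated through RefSeq (GRCm38.p6, names only). The number of arrays limits the precision.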

Additional observations from a re-analysis of the deposited data

How the results depend on the processing

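The upstream Lox probe kept its direction in all 15 alternatives that gave a value (the filter for probes well above background on all 5 arrays leaves it out). Its log2 difference moved by more than the spread between replicates with normexp (-0.51), in the deposited table (-1.06), with slide as a fixed block (-2.86) and on the arrays of slide 1 only (-2.86), and leaving out 1 array at a time gave -2.57 to -2.09. The number of probes called was 0 throughout except on slide 1 only, where the spread comes from the 2 EXO-STD arrays (94), and without EXO-STD replicate 1 (3), so leaving out 1 array gave 0 to 3. Loxl1 probe A_55_P2096226 and Loxl2 probe A_52_P480351 kept their sign in all 16 alternatives. The probe on chromosome 2 changed sign without EXO-HP replicate 3 and with the replicate block, and Loxl4 probe A_55_P2044143 (not detected in EXO-STD) did so with slide as a fixed block and on slide 1 only, but not with the random block. Median scaling moved the median of all tested probes from 0.07 to -0.10. With the replicate block the Lox difference was -2.57 and 0 probes were called. The deviations of same-numbered arrays correlated at 0.02 and -0.06. Because the deviations of the 2 EXO-STD arrays mirror each other, this cannot decide whether equal numbers mark pairs. The 3 untested probes were not recomputed with slide as a random block or with outlier spots kept. Signal near background limits both Lox probes.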
